A study of Mus musculus with 12 samples.

Results

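The pentose phosphate pathway was examined through its 7 enzyme genes G6pdx, Pgls, Pgd, Rpia, Rpe, Tkt and Taldo1, in bulk RNA-seq profiles of 12 mouse melanoma tumors. The genes were taken by name, as the oxidative and non-oxidative steps of the pathway, from a table of 55487 Ensembl identifiers, and all 7 had enough counts to be tested among 16225 genes. As a set they were selected on the expression differences between Arf6-null and wild-type tumors in these same counts, with no numeric threshold. Those differences are therefore given as a description, and no claim rests on them. The 6 Arf6-null tumors carried BrafCA with floxed Cdkn2a and floxed Arf6 (BrafCA;Cdkn2af/f;Arf6f/f), and the 6 wild-type tumors carried BrafCA with floxed Cdkn2a only (BrafCA;Cdkn2af/f). Wild type therefore refers to Arf6 alone, and the Braf and Cdkn2a alleles are shared by all 12 tumors. Arf6 encodes a small GTPase of membrane and endosome traffic. The Cre driver, its delivery, and the age and sex of the mice were not stated in the labels.

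The pathway branches from glycolysis at glucose 6-phosphate. Its oxidative arm makes NADPH, the reducing power for lipid synthesis and for keeping glutathione reduced, and ends in ribulose 5-phosphate. Its reversible non-oxidative arm turns pentose phosphates into ribose 5-phosphate for nucleotides or back into fructose 6-phosphate and glyceraldehyde 3-phosphate, which re-enter glycolysis. Many tumors are known to use both arms during growth.

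Read totals were 21007954 to 45688253 counts in Arf6-null libraries and 22211738 to 30326419 in wild-type libraries. Arf6 was at 18.3 ± 3.73 CPM (counts scaled to library size) in Arf6-null and 111 ± 24.9 CPM in wild-type tumors (SD, n = 6 each), a difference of -2.60 ± 0.18 on the log2 scale (SE; edgeR quasi-likelihood test, adjusted p = 0.000101), and it passed in all 12 fits that left out 1 library. Of 11 melanocyte markers, those most specific to pigment cells were at or near 0: Mlana had 0 counts in every library, Tyr 0 counts in Arf6-null and 0 to 2 in wild-type libraries, and Dct and Tyrp1 0 to 1 in either. Slc45a2 and Oca2 had at most 2 counts in any library, and Sox10 had 1 to 22 counts in Arf6-null and 0 to 33 in wild-type libraries. Pmel had 21 to 50 counts in Arf6-null and 10 to 39 in wild-type libraries, and Mitf had 271 to 1239 counts in Arf6-null and 238 to 713 in wild-type libraries. Kit had 37 to 328 counts in Arf6-null and 253 to 596 in wild-type libraries, and Gpnmb 228 to 4522 in Arf6-null and 224 to 2665 in wild-type libraries. Mitf, Kit and Gpnmb are also expressed by other cells, such as mast cells and macrophages. Skeletal muscle markers were all lower on average in Arf6-null tumors, 15 of 15 by log2 fold change with 1 past the test. Their summed level ran from 7.53 to 74.1 CPM in Arf6-null and from 31.2 to 2521 CPM in wild-type libraries, and wild-type replicates 3, 4 and 5, called muscle-rich here, had 2405, 1519 and 2521 CPM. None of the 15 was at 0 in every library. Sex was uneven as well, with Xist above 100 CPM in 1 Arf6-null library (replicate 6) and 3 wild-type libraries (replicates 3, 5 and 6). Y-linked genes summed to at most 0.444 CPM in these 4 and to 148 to 248 CPM in 7 of the other 8, but to 22.3 CPM in wild-type replicate 1, which matched neither pattern. Libraries were numbered 19 to 24 for Arf6-null and 1 to 6 for wild type. Tumor numbers in the sample titles ran from 19836 to 20570 for Arf6-null. For wild type they ran from 5526 to 7657, except 20681 for replicate 5. The labels do not say what these numbers stand for, and whatever follows the library numbers cannot be told apart from genotype.

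Tkt was the pathway gene with the widest separation of the genotypes. It encodes transketolase, the thiamine-dependent enzyme that moves 2-carbon units between sugars in the non-oxidative arm. Its lowest, median and highest levels were 316, 352 and 463 CPM in Arf6-null libraries and 157, 187 and 266 CPM in wild-type libraries. Every Arf6-null library was above every wild-type library. Tkt was the 1 enzyme of 7 separated in this way, and 0 of 7 had all Arf6-null libraries below all wild-type libraries, where the shares over all tested genes were 1.15% and 1.21%. Tkt averaged 365 ± 52.4 CPM in Arf6-null and 194 ± 39.9 CPM in wild-type tumors, and the edgeR log2 fold change was 0.91 (SE 0.14), a 1.88-fold difference. In bulk tissue, a larger share of cells with much Tkt and more Tkt per cell cannot be told apart.

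Tkt was the 1 of 7 enzymes past an edgeR adjusted p of 0.05 as higher in Arf6-null tumors, and 0 of 7 passed as lower. At an unadjusted p under 0.05, 4 of 7 were higher and 0 lower, where 23.4% of all tested genes passed, 11% as higher and 12.4% as lower. DESeq2 and limma-voom each called 2 of 7 higher (Tkt and G6pdx) and 0 lower. Over all genes DESeq2 called 5.21% higher and 6.63% lower (11.8% in all), and limma-voom 2.98% higher and 2.76% lower (5.74% in all). With the edgeR adjusted p, 0.586% of all tested genes passed as higher and 0.561% as lower, and since the genes were picked with this contrast in view nothing is read from these counts. The median log2 fold change of the 7 was 0.25, against -0.03 for all tested genes. All 7 values were positive, as were 7660 of 16225 over all genes, but the value of Rpe turned negative in 9 of 22 other settings. Tkt passed in 9 of the 12 fits that left out 1 library and not without wild-type replicate 1, 3 or 6, where its log2 fold change was 0.86, 0.90 and 0.90. It did not pass with Y-linked expression as a covariate (0.81) or with skeletal muscle markers as a covariate (1.01). Without the 3 muscle-rich wild-type libraries it passed with 0.99. Those 3 libraries had 157, 188 and 266 CPM of Tkt, and the other 3 wild-type libraries 160.2, 187 and 208 CPM. With Xist under 100 CPM, 5 Arf6-null libraries had 316 to 463 CPM of Tkt and 3 wild-type libraries 160.2 to 266 CPM. Without wild-type replicate 1 the latter were at 208 and 266 CPM. Since Tkt separates all 12 libraries by genotype, every subset stays separated too, and nothing is read from these splits by muscle or Xist.

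**Figure D1:**
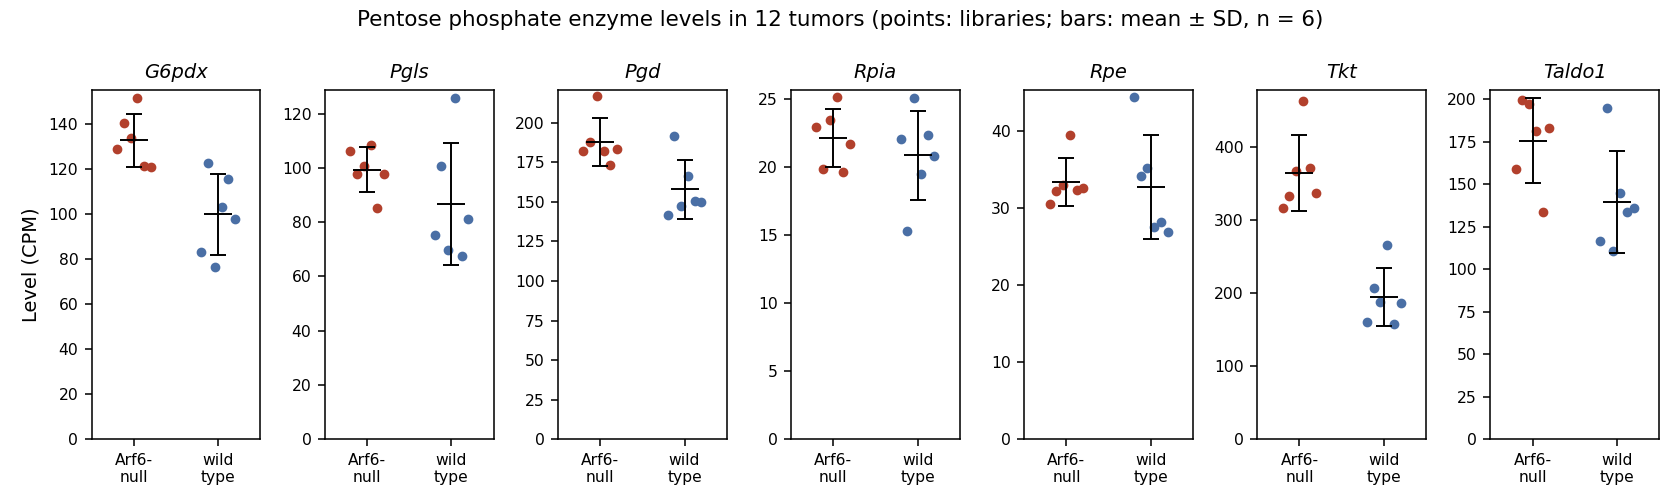
Levels of the 7 pentose phosphate enzymes in CPM (vertical axes from 0, a separate scale for each gene) in 6 Arf6-null and 6 wild-type libraries, with points for libraries and bars for mean ± SD. Only the Tkt panel has no overlap between the genotypes, 316 to 463 CPM in Arf6-null against 157 to 266 CPM in wild type.

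The promoter windows of Tkt and of G6pdx, the gene of the entry step, are shown because these enzymes had the largest log2 fold changes of the 7. Both come from the RefSeq table for GRCm38.p6, which held a window for all 7 enzymes. Each runs from 250 bases before to 50 bases after the RefSeq start of transcription. Capitals mark matches, on either strand, to the letters of 5 motifs: TGACNNNGC (antioxidant response element), CACGTG (E-box), ACGTG (hypoxia response element core, which lies inside the E-box), TCACNCCAC (sterol regulatory element) and GGGCGG (GC box). The Tkt window lies at chr14:30548881-30549180 on the plus strand and the G6pdx window at chrX:74428831-74429130 on the minus strand. In GENCODE M21, used here for gene positions, Tkt starts at 30548359 and G6pdx at 74429194. Both of these starts lie outside the windows.
Tkt: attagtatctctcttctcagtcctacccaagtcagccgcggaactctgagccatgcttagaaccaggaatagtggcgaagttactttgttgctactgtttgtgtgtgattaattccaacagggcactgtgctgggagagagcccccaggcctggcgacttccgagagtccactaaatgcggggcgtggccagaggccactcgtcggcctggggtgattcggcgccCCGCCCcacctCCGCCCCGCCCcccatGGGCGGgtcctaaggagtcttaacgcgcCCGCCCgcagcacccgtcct
G6pdx: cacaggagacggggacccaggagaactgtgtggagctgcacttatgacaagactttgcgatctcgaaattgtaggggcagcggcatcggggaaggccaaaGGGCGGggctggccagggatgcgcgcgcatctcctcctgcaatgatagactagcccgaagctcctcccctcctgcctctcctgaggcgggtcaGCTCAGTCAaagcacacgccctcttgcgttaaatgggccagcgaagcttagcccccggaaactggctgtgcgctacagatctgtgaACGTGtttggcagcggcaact

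The Tkt window held 5 matches to the GC box, with some overlapping, and 0 matches to the other 4 motifs. The G6pdx window held 1 antioxidant response element match, starting at position -57 from the RefSeq start site, 1 ACGTG at position 29 and 1 GC box at position -150. Of 32851 windows of 300 bases in the table, 12.4% held the antioxidant response element letters, 19.6% ACGTG, 7.15% the E-box, 1.24% the sterol element and 35.7% the GC box. The windows of the other 5 enzymes held GC box matches only among these motifs. A match to letters is no sign of binding, and a lack of match says only that these letters are not in the window.

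The oxidative arm begins with glucose-6-phosphate dehydrogenase, encoded by G6pdx, which makes the first NADPH and sets the flow into the pathway. Its lowest, median and highest levels were 121, 131 and 151 CPM in Arf6-null libraries and 76.6, 101 and 123 CPM in wild-type libraries. The genotypes overlapped through wild-type replicate 2, the 1 wild-type library above the Arf6-null minimum. The means were 133 ± 11.8 CPM in Arf6-null and 99.8 ± 17.96 CPM in wild-type tumors, with a log2 fold change of 0.41 (SE 0.12). G6pdx did not pass in the fit of all 12 libraries and passed without wild-type replicate 2 (0.48), with DESeq2 and with limma-voom. The gene lies on the X chromosome (GRCm38, 74409483 to 74429194). Within wild type, its levels were 76.6 to 116 CPM in the 3 libraries with Xist above 100 CPM and 83.0 to 123 CPM in the 3 others (103 and 123 CPM without replicate 1), which overlap. Within Arf6-null, the single Xist-high library had 121 CPM and the 5 others 121 to 151 CPM. G6pdx overlaps Ikbkg on the other strand, and without the strand setting of the counter their shared reads cannot be assigned: Ikbkg was at 60.7 ± 8.06 CPM in Arf6-null and 54.4 ± 12.5 CPM in wild-type tumors (edgeR adjusted p = 0.546).

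Pgls encodes 6-phosphogluconolactonase, the hydrolase of the second step, and Pgd encodes 6-phosphogluconate dehydrogenase, which makes the second NADPH. Pgd ran at 173, 183 and 217 CPM (lowest, median, highest) in Arf6-null libraries and at 142, 150.1 and 192 CPM in wild-type libraries. Here too 5 of 6 wild-type libraries were below the lowest Arf6-null library and replicate 2 was not. Its log2 fold change was 0.25 (SE 0.09), and it did not pass in any of the 23 settings. Pgls was at 85.4, 99.2 and 109 CPM in Arf6-null libraries and at 67.7, 78.3 and 126 CPM in wild-type libraries. The highest Pgls level of all 12 was in wild-type replicate 4, and the log2 fold change of 0.20 had an SE of 0.15. Part of Pgls overlaps Fam129c on the same strand, which was near 5.40 ± 0.655 CPM in Arf6-null and 6.17 ± 0.990 CPM in wild-type tumors.

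In the non-oxidative arm, Rpia (ribose 5-phosphate isomerase) makes ribose 5-phosphate and Rpe (ribulose-phosphate 3-epimerase) makes xylulose 5-phosphate from the same substrate. These isomerase genes differed least. Rpia was at 19.6, 22.3 and 25.1 CPM in Arf6-null libraries and at 15.3, 21.4 and 25.01 CPM in wild-type libraries, with a log2 fold change of 0.08 (SE 0.12). Rpe was at 30.5, 32.4 and 39.5 CPM in Arf6-null libraries and at 26.9, 31.2 and 44.4 CPM in wild-type libraries, with a log2 fold change of 0.03 (SE 0.13). For both genes the wild-type range covered most of the Arf6-null range. Rpe overlaps the end of Kansl1l on the other strand, which was at 24.4 ± 10.01 CPM in Arf6-null and 19.6 ± 7.51 CPM in wild-type tumors. Taldo1 encodes transaldolase, which works next to transketolase and moves 3-carbon units. It was at 134, 182 and 199.7 CPM in Arf6-null libraries and at 111, 135 and 195 CPM in wild-type libraries. The genotypes overlapped, with Arf6-null replicate 5 and wild-type replicate 2 at the near ends of their ranges, and the log2 fold change was 0.33 (SE 0.15).

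**Figure D2:**
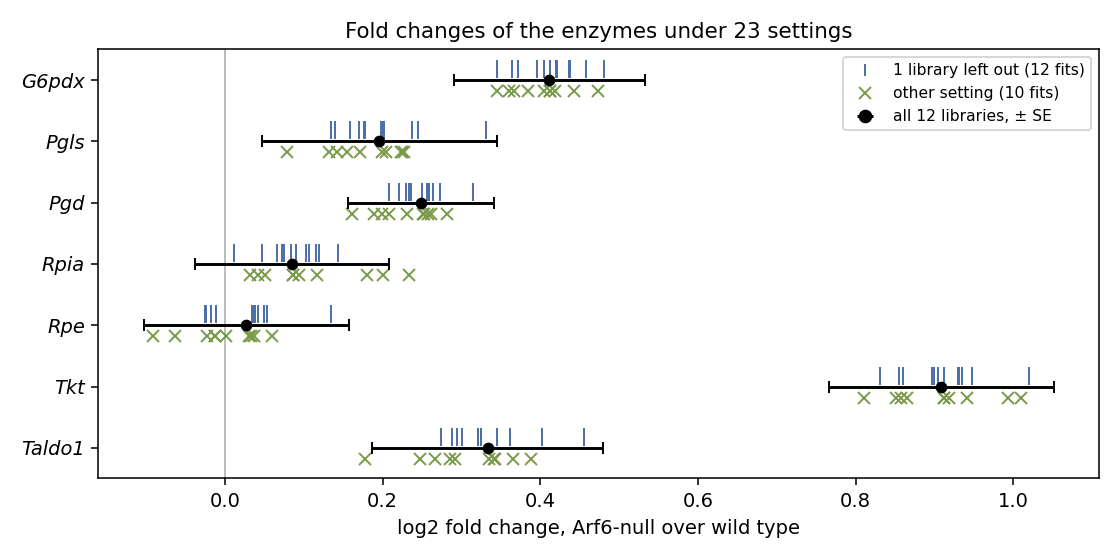
Log2 fold changes of the 7 enzymes, Arf6-null over wild type (horizontal axis), with all 12 libraries (circle, ± SE), without 1 library (ticks, 12 fits) and under 10 other settings (crosses). Tkt stays between 0.81 and 1.02, and Rpe lies on both sides of 0.

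The balance of Tkt against the other enzymes was compared as ratios of levels per length of the exons (FPKM) within each library. The ratio of Tkt to Pgd was 1.49, 1.58 and 2.22 (lowest, median, highest) in Arf6-null and 0.917, 1.04 and 1.40 in wild-type libraries, and the genotypes did not overlap. Against G6pdx, Tkt had ratios of 0.994, 1.16 and 1.28 in Arf6-null and 0.570, 0.804 and 1.08 in wild-type libraries. These overlapped, with 4 Arf6-null libraries above all wild-type libraries. The ratio of Tkt to Taldo1 was 0.493, 0.569 and 0.821 in Arf6-null and 0.314, 0.405 and 0.542 in wild-type libraries, where Arf6-null replicate 2 fell within the wild-type range. The ratio of Pgd to G6pdx was 0.576, 0.680 and 0.775 in Arf6-null and 0.622, 0.758 and 0.919 in wild-type libraries, which overlap widely. Another gene length multiplies a ratio by the same factor in every library and leaves the overlap as it is. Ratios with Tkt carry its genotype difference, with which the set was selected, so nothing is read from their separation.

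By median FPKM, Taldo1 was the highest of the 7 in both genotypes, at 84.0 in Arf6-null and 62.0 in wild-type tumors. With these lengths it was above the next gene in all 6 libraries of each genotype, although its range overlapped that of Tkt in Arf6-null tumors. Rpe was at 10.4 FPKM in Arf6-null and 10.02 FPKM in wild-type tumors, and Rpia was the lowest, at 4.16 FPKM in Arf6-null and 4.001 FPKM in wild-type tumors. The ranges of Rpe and Rpia did not overlap in either genotype. In between, Tkt was at 47.9 FPKM, G6pdx at 42.6, Pgd at 28.4 and Pgls at 26.3 in Arf6-null tumors. In wild-type tumors G6pdx was at 32.6 FPKM, Tkt at 25.5, Pgd at 23.3 and Pgls at 20.8. Among these 4, only G6pdx and Pgd in Arf6-null tumors were neighbors whose ranges did not overlap. The place of Tkt depends on the length used: with the longest transcript in place of the union of exons it was second in both genotypes, at a median of 109 FPKM in Arf6-null and 58.1 FPKM in wild-type tumors, and Pgd moved above G6pdx by median. Taldo1 was then above Tkt in 4 of 6 Arf6-null libraries, with overlapping ranges in both genotypes.

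Tumors of one genotype also differed from each other. Wild-type replicate 2 had the highest G6pdx, Pgd and Taldo1 levels of its genotype and the lowest Rpia level. In log2 CPM relative to the wild-type mean, it was at 0.32 for G6pdx, 0.29 for Pgd and 0.51 for Taldo1, and at -0.43 for Rpia. Wild-type replicate 4 was the highest of its genotype for Pgls and Tkt, at 0.57 and 0.48. Arf6-null replicate 4 was the highest of its genotype for G6pdx, Pgls, Rpia, Rpe and Tkt. Arf6-null replicate 5 was the lowest for Pgls, Pgd, Rpia and Taldo1. Of these libraries only wild-type replicate 4 was muscle-rich, and the part of tissue makeup in these deviations was not tested.

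**Figure D3:**
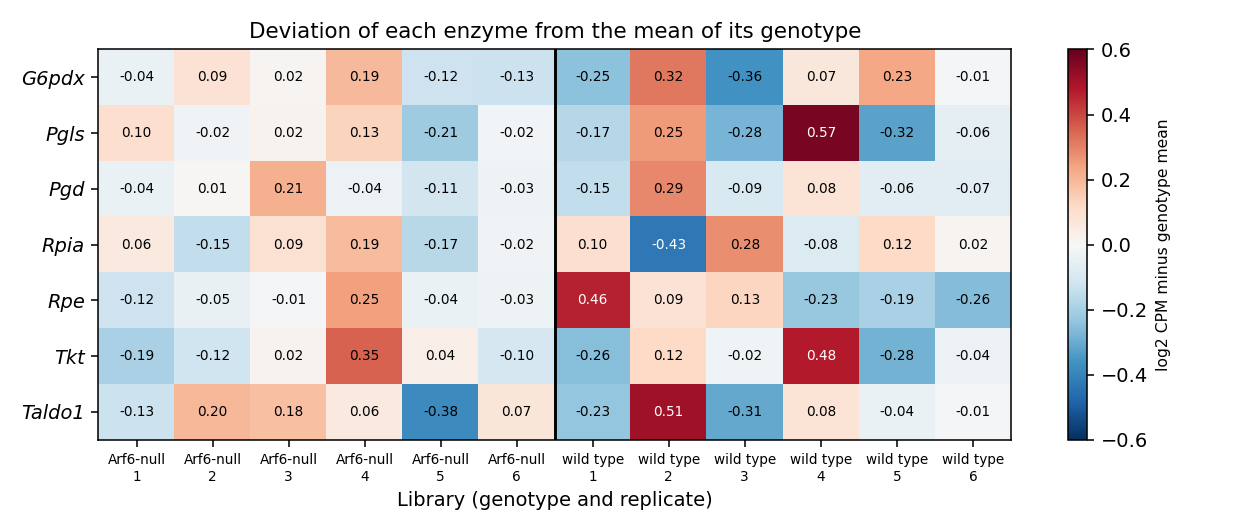
Deviation of each enzyme (rows) from the mean of its genotype in log2 CPM, for 6 Arf6-null libraries on the left and 6 wild-type libraries on the right of the line. Wild-type replicate 2 is high for Taldo1 (0.51) and low for Rpia (-0.43), and wild-type replicate 4 is high for Pgls (0.57) and Tkt (0.48).

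With the genotype means removed, the genes most like each enzyme over the 12 libraries were ranked by Pearson's r of log2 CPM among 13636 other protein-coding genes with a full name. Such values share library depth and tumor makeup, and are given as a description. The best of 13636 genes over 12 libraries can reach a high r by chance alone. The closest genes were Aspscr1, Slc20a2 and Nt5c for G6pdx (r from 0.97 for the first to 0.91 for the third), Szrd1, Rps23 and Coprs for Pgls (0.95 to 0.91) and Rsrc1, Tsr3 and Fggy for Pgd (0.95 to 0.90). They were Maip1, Exosc3 and Adamts20 for Rpia (0.90 to 0.89), Tcea1, Ssb and Lrig1 for Rpe (0.95 to 0.92), Upf1, Lzic and Ofd1 for Tkt (0.91 to 0.90), and Cd151, Shkbp1 and Smim20 for Taldo1 (0.90 to 0.88). Some of these genes were low or uneven, such as Adamts20 (0.856 ± 0.784 CPM in Arf6-null tumors) and Fggy (31.2 ± 45.3 CPM in wild-type tumors). No enzyme of the pathway was among the 3 closest genes of another. Between the enzymes, r was 0.85 for Pgd and Taldo1, 0.76 for G6pdx and Taldo1 and 0.75 for Pgls and Tkt, and -0.56 for Rpia and Taldo1. Within 1 genotype r rests on 6 libraries. For Pgls and Tkt it was 0.20 in Arf6-null and 0.92 in wild-type tumors. For Rpia and Taldo1 it was 0.35 in Arf6-null and -0.97 in wild-type tumors. For Pgd and Taldo1 it was 0.67 in Arf6-null and 0.95 in wild-type tumors. Wild-type replicate 4 lay far out for Pgls and Tkt (0.57 and 0.48 in log2 CPM from the mean), as did replicate 2 for Rpia and Taldo1 (-0.43 and 0.51). Whether r differs between the genotypes was not tested.

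Close relatives of the enzymes had few counts or did not pass. G6pd2, an intronless copy of G6pdx on chromosome 5, had 13 counts over the 6 Arf6-null and 10 over the 6 wild-type libraries. The transketolase-like genes Tktl1 and Tktl2 had 4 and 4 counts in Arf6-null and 2 and 0 counts in wild-type libraries, where a count of 0 allows up to 3. All 3 were too low to test. H6pd, which encodes the dehydrogenase of the endoplasmic reticulum that runs the first oxidative steps there, was at 103 ± 34.95 CPM in Arf6-null and 91.2 ± 23.01 CPM in wild-type tumors (log2 fold change 0.18, SE 0.23, edgeR adjusted p = 0.662).

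Of 13 tested entry, exit and related enzyme genes, 1 passed as higher in Arf6-null tumors, none as lower, and 12 did not pass. Over all tested genes 0.586% passed with edgeR as higher and 0.561% as lower. The median log2 fold change of the 13 was 0.18, against -0.03 for all tested genes. The gene that passed was Pgm2, a phosphomutase whose human counterpart interconverts ribose 1-phosphate and ribose 5-phosphate. It was at 191 ± 53.1 CPM in Arf6-null and 99.3 ± 15.7 CPM in wild-type tumors (log2 fold change 0.95, SE 0.18, edgeR adjusted p = 0.0318). It passed in 6 of 12 fits without 1 library and not without Arf6-null replicate 1 or 2 or wild-type replicate 1, 3, 4 or 6, where the edgeR adjusted p lay between 0.0600 and 0.0768. It also did not pass without the 3 muscle-rich wild-type libraries, with the Y-linked covariate or with the muscle covariate, where its log2 fold change was 1.06, 0.94 and 1.10. Prps1 and Prps2 encode ribose-phosphate pyrophosphokinases, which carry ribose 5-phosphate into nucleotide synthesis, and neither passed. Prps1 was at 27.4 ± 4.49 CPM in Arf6-null and 36.9 ± 9.22 CPM in wild-type tumors, and Prps2 at 32.8 ± 6.04 CPM in Arf6-null and 34.97 ± 11.7 CPM in wild-type tumors (edgeR adjusted p = 0.163 and 0.823). Tigar, a phosphatase that diverts sugar phosphates toward the pathway, was at 8.59 ± 3.07 CPM in Arf6-null and 8.17 ± 2.21 CPM in wild-type tumors (edgeR adjusted p = 0.891).

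Glycolysis shares glucose 6-phosphate, fructose 6-phosphate and glyceraldehyde 3-phosphate with the pathway. The glycolytic genes listed also cover steps without these intermediates, such as Slc2a1 and Ldha, and had a median log2 fold change of 0.79. With edgeR 0.586% of all tested genes passed as higher and 0.561% as lower. Of the 20 glycolytic genes tested, 3 passed as higher and none as lower. These were Gpi1 (glucose-6-phosphate isomerase), Tpi1 (triosephosphate isomerase) and Pfkl (phosphofructokinase, liver type), and Gpi1 was at 828 ± 196 CPM in Arf6-null and 433 ± 78.0 CPM in wild-type tumors (log2 fold change 0.94, SE 0.18, edgeR adjusted p = 0.0346). Tpi1 was at 993 ± 267 CPM in Arf6-null and 488 ± 109 CPM in wild-type tumors (edgeR adjusted p = 0.0435), and Pfkl at 359 ± 109.8 CPM in Arf6-null and 129 ± 53.1 CPM in wild-type tumors (edgeR adjusted p = 0.0448). Gpi1 passed in 4 of 12 fits without 1 library, and Tpi1 and Pfkl in 3 each. Gpi1 was lost without Arf6-null replicate 1, 2, 4 or 5 or wild-type replicate 1, 3, 4 or 6 (edgeR adjusted p from 0.0548 to 0.0794). Tpi1 and Pfkl were lost without those and without Arf6-null replicate 3 (edgeR adjusted p from 0.0601 to 0.0953). None of the 3 passed without the muscle-rich libraries, where the log2 fold change was 0.92 for Gpi1, 0.87 for Tpi1 (1.02 with all libraries) and 1.15 for Pfkl (1.47 with all libraries). None passed with the Y-linked covariate, at 0.81 for Gpi1, 0.74 for Tpi1 and 1.20 for Pfkl, or with the muscle covariate, at 0.88, 0.83 and 1.10 for the same genes. DESeq2 and limma-voom each called 11 of the 20 higher and 1 lower. Over all genes DESeq2 called 5.21% higher and 6.63% lower, and limma-voom 2.98% higher and 2.76% lower. At an unadjusted edgeR p under 0.05, 13 of the 20 were higher and 1 lower, against 11% and 12.4% of all tested genes.

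Lists of other NADPH sources, of antioxidant genes and of nucleotide synthesis gave no call with edgeR. Their counts at an unadjusted p under 0.05 stand beside 23.4% of all tested genes, 11% as higher and 12.4% as lower. The list of other NADPH sources held malic enzymes, isocitrate dehydrogenases and folate enzymes, and also related genes such as Nadk and Shmt2. Of its 16 genes 0 passed with edgeR, with a median log2 fold change of 0.05. At an unadjusted p under 0.05 there were 4, 3 higher and 1 lower, and DESeq2 called 1. The smallest p was that of Aldh1l1, a folate enzyme that releases NADPH, at 47.2 ± 27.8 CPM in Arf6-null and 19.99 ± 6.70 CPM in wild-type tumors (edgeR adjusted p = 0.0843). Of 25 genes of glutathione and thioredoxin handling and NRF2 targets, 0 passed with edgeR, with a median of 0.18. At an unadjusted p under 0.05 there were 6, all higher, and DESeq2 and limma-voom called 1 each. Prdx1, a peroxiredoxin, had the smallest p, at 1045 ± 314 CPM in Arf6-null and 572 ± 86.2 CPM in wild-type tumors (edgeR adjusted p = 0.0562). Of 22 purine and pyrimidine synthesis genes 0 passed with edgeR (3 at an unadjusted p under 0.05, all higher, and 1 with DESeq2), with a median of 0.14. Cad, which starts pyrimidine synthesis, was at 148 ± 52.5 CPM in Arf6-null and 79.9 ± 14.5 CPM in wild-type tumors (edgeR adjusted p = 0.065).

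**Figure D4:**
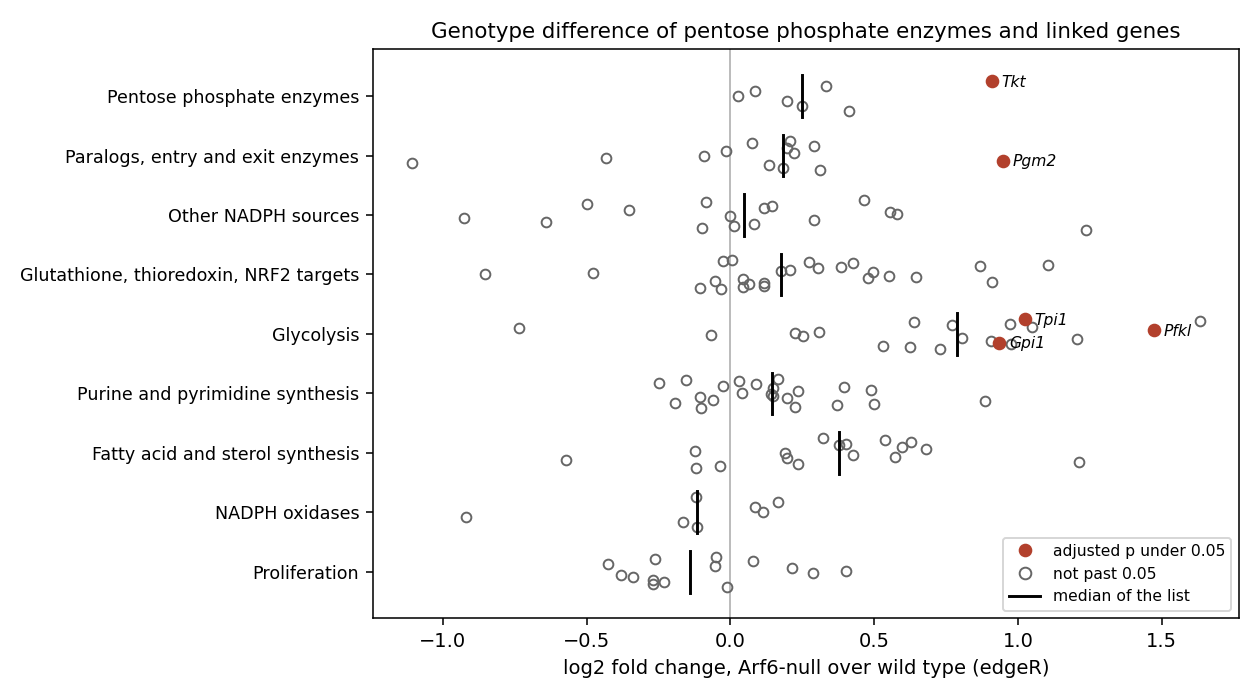
Log2 fold changes, Arf6-null over wild type (horizontal axis), of the pentose phosphate enzymes and of 8 lists of linked genes (rows), 1 circle for each tested gene. Filled circles passed an edgeR adjusted p of 0.05 (Tkt, Pgm2, Gpi1, Tpi1 and Pfkl), and black bars are list medians, 0.25 for the enzymes and 0.79 for glycolysis.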

How the data were processed

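RNA was profiled in 12 tumors. Per the labels' protocols, libraries were made with a stranded poly(A) kit. Per the submitters' processing notes, STAR 2.7.3a, featureCounts 1.6.3 and DESeq2 1.26.0 were used with GRCm38. The strand setting and the annotation release were not stated in those notes. The authors deposited raw counts of reads per gene for 55487 identifiers, and GENCODE M21 gave symbols, positions and exon lengths. Whether each tumor is from its own animal is not in the labels, and p-values reflect only the variation among these libraries, which may be technical.

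Genes below the default of filterByExpr (10 counts) were removed, leaving 16225 genes with 99.87% of counts. Genotypes were compared with the quasi-likelihood test of edgeR 4.0.16 (R 4.3.3, TMM scaling, robust), with Benjamini-Hochberg adjustment over all tested genes at 0.05. CPM used the scaled library sizes, and log2 CPM a prior count of 2. Alternatives included DESeq2 1.42.0 and limma 3.58.1, and the function was tested on simulated data. Genes, lists and tests were chosen with earlier results of these data known. Named genes were Arf6, the 7 enzymes, their 3 closest genes by within-genotype correlation, their relatives G6pd2, H6pd, Tktl1 and Tktl2, and from each list up to 4 called genes or, with none, that of smallest p. Prps1, Prps2 and Tigar were added after their values were seen. The gene that this rule names for 1 list is not reported here.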

Additional observations from a re-analysis of the deposited data

Results flagged for a closer look

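In each genotype, library totals, Arf6, H6pd, the 7 enzymes and the ratio of Tkt to Pgd were examined for a value that stood apart from the rest of its group. Of 22 sets of 6 values 2 stood out, where chance alone gives about 1 in 20. Pgd in Arf6-null replicate 3 was at 7.77 on the log2(CPM + 1) scale, with the other Arf6-null libraries between 7.45 and 7.56. Rpe in Arf6-null replicate 4 was at 5.34 on the same scale, with the others between 4.98 and 5.09.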

How the results depend on the processing

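Log2 fold changes of the 7 enzymes moved by less than the spread between replicates under all 22 alternatives. That limit is wide, since leaving out 1 library moves the mean of its genotype little. With the muscle covariate Taldo1 went from 0.33 to 0.18 and Pgd from 0.25 to 0.16, while Rpia rose from 0.08 to 0.23 and Tkt from 0.91 to 1.01. With the Y-linked covariate Pgls went from 0.20 to 0.08 and Rpia from 0.08 to 0.18. The number of enzymes past the threshold as higher was 1, and it became 2 with DESeq2, with limma-voom and at an adjusted p of 0.1, as G6pdx passed too, and 0 with Y-linked expression or skeletal muscle markers as a covariate. It ranged from 0 to 2 over the fits without 1 library, and no enzyme passed as lower in any setting. Over all genes 186 were called, against 2241 with DESeq2, 931 with limma-voom, 1359 at an adjusted p of 0.1, 30 with the Y-linked covariate, 16 with the muscle covariate, 35 without the 3 muscle-rich wild-type libraries, and 25 to 766 over the fits without 1 library. The muscle alternatives were chosen after seeing the data. The cause of these changes was not tested. FPKM with the longest transcript was higher for every enzyme and changed their order. No paired analysis was possible because the labels give the tumors no replicate numbers shared between genotypes. Depth did not limit the 7 enzymes, at 456 counts or more in each library, but G6pd2, Tktl1 and Tktl2 were too low to compare.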

Other observations

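Further lists of NADPH users and of cell growth held no gene past the edgeR test. Of 17 fatty acid and sterol synthesis genes, whose enzymes consume NADPH, 13 had a positive log2 fold change, with a median of 0.38, and 0 passed (8 at an unadjusted p under 0.05, all higher, where 11% of all tested genes were, and 2 with DESeq2). Of 7 tested NADPH oxidase genes 0 passed (1 at an unadjusted p under 0.05 and 1 with DESeq2, both lower), with a median of -0.12, and Ncf1, a subunit of the phagocyte oxidase, was at 21.8 ± 6.42 CPM in Arf6-null and 41.2 ± 19.6 CPM in wild-type tumors (edgeR adjusted p = 0.108). Of 14 proliferation genes 0 passed, at an unadjusted p under 0.05 or with DESeq2 also 0, and 4 had a positive value, with a median of -0.14. Mcm2, a replication helicase subunit, was at 96.0 ± 24.1 CPM in Arf6-null and 72.5 ± 15.5 CPM in wild-type tumors (edgeR adjusted p = 0.215).

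Markers of cell types that could add enzyme transcripts overlapped between the genotypes. Red blood cell transcripts, 5 of 5 with a positive log2 fold change and 0 past the test, summed to 15.1 to 373 CPM in Arf6-null and 19.1 to 169 CPM in wild-type libraries. Adipocyte markers, 5 of 5 tested with a negative value, summed to 7.23 to 79.0 CPM in Arf6-null and 8.87 to 124 CPM in wild-type libraries. Macrophage and monocyte markers, 9 of 9 negative, summed to 1832 to 2984 CPM in Arf6-null and 1473 to 4547 CPM in wild-type libraries. Fibroblast markers, 8 of 8 negative, summed to 2074 to 13595 CPM in Arf6-null and 6588 to 23665 CPM in wild-type libraries. Mast cell markers, 6 of 6 negative and 0 past the test, summed to 4.46 to 94.9 CPM in Arf6-null and 35.5 to 555 CPM in wild-type libraries. Schwann cell markers, 4 of 4 tested with a negative value, summed to 13.2 to 73.1 CPM in Arf6-null and 56.1 to 104 CPM in wild-type libraries. Other lists were mixed in sign, with negative values for 6 of 7 endothelial, 4 of 6 neutrophil, 6 of 8 T cell and 1 of 2 keratinocyte markers tested. B and plasma cell markers were negative in 2 of 2 tested. In these further lists 0 passed the test. None of the markers in this paragraph was at 0 in every library, and their part in the enzyme levels was not tested.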
